A study of Mus musculus with 6 samples.

Results

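The genes followed here, in sorted mouse bone marrow, are 6 genes of platelets: Ppbp and Pf4, chemokines stored in alpha granules, Vwf, the adhesion protein of the same granules, Gp9 and Cd9, proteins of the platelet surface, and Cavin2, a caveolar membrane protein of platelets. They were chosen by name, with their differences between the groups known from earlier work on the same arrays, and every probe set annotated to exactly 1 of these symbols was taken. Each gene had 1 such probe set, so the 6 genes are 6 of the 14610 probe sets tested and 6 of the 10366 genes with a probe set of their own. Because the group difference chose them, their values are given as a description and without a test.

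Cells positive for LKS-Slam markers, a flow cytometry gate of marrow cells without lineage markers that carry Kit and Sca-1 and are enriched for hematopoietic stem cells, came from Zeb2Δ/ΔMx1-Cre mice (here Zeb2-KO, 3 arrays) and from C57Bl/6 WT mice (3 arrays). The Zeb2-KO mice carried Zeb2 fl/fl alleles with Mx1-Cre, a recombinase under an interferon-responsive promoter that acts in many cell types besides stem cells. Both groups were given pIC, which induces interferon, when 6 weeks old, and marrow was taken 8 weeks later, at 14 weeks, so the WT mice had the same inducer and no Cre is named in their labels. The comparison addresses what deletion of Zeb2, a zinc-finger transcriptional repressor, does to transcripts in stem cell-enriched marrow. The labels call the 3 samples of a group biological replicates and do not say whether any sample pooled animals.

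Platelets are shed by megakaryocytes, which arise from stem cells along a path that shares early steps with red cells. Their alpha granules hold chemokines and adhesion proteins that are released when the cell is activated, and their surface holds receptor complexes that bind von Willebrand factor, collagen and fibrinogen. In the mouse, part of the stem cell compartment already carries megakaryocyte transcripts such as Vwf and is biased towards platelet output, so these RNAs can be present inside a stem cell gate.

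Several features of the arrays bear on every value below. Zeb2 itself was higher in the arrays labelled Zeb2-KO, at log2 intensities of 7.79, 9.13 and 8.96 against 6.58, 7.51 and 7.34 in WT, in 1 probe set whose place relative to the deleted part of the gene is not given in the labels, so every direction rests on the labels alone. Median intensities lay between 96.8 and 99.2 in Zeb2-KO and between 94.3 and 98.9 in WT, but the interquartile range of log2 values was 1.83, 2.40 and 2.11 in Zeb2-KO and 1.59, 2.03 and 1.77 in WT. WT replicate 1 correlated least with the other arrays (mean correlation 0.841, against 0.886 to 0.908 for the rest). Zeb2-KO replicate 1 and WT replicate 1 carried raised Y-linked signal, with the Y-linked gene Eif2s3y at 6.46 and 5.20 and at no more than 3.38 on the other arrays. Xist, the X-inactivation RNA of female cells, was at 8.15 and 9.70 on these 2 arrays and at 10.70 or more on the others. Both values lay above the medians of their arrays, 6.62 and 6.61, and whether these samples held RNA of both sexes was not tested. Of the gate's markers, Kit, the stem cell factor receptor, was bright on all 6 arrays, at 10.14, 10.17 and 10.23 in Zeb2-KO and at 9.0, 10.06 and 9.89 in WT. Slamf1, the gate antigen CD150, was at 8.31, 9.01 and 8.30 in Zeb2-KO and at 5.76, 8.02 and 7.94 in WT, where replicate 1 lay below its array's median of 6.61. Cd48, which cells of a Slam gate usually lack at the surface, was at 6.79, 6.86 and 5.72 in Zeb2-KO and at 7.19, 7.70 and 7.55 in WT, and Ly6a, the gene of Sca-1, was not analysed here.

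Of the 6 genes, 5 had all 3 Zeb2-KO arrays above all 3 WT arrays, where 6.9% of all probe sets lay higher without overlap, a count that the choice of the genes fixes. The exception was Gp9. Differences (Zeb2-KO minus WT, log2) ran from 3.28 for Ppbp down through Pf4, Cavin2, Cd9 and Vwf to -0.09 for Gp9, beside a median of -0.09 over all probe sets tested. In the order of differences over the whole table, Ppbp stood in place 4 from the highest, Pf4 in place 21, Cavin2 in place 101, Cd9 in place 479, Vwf in place 1933 and Gp9 in place 7359. In bulk samples, more cells of a type and more RNA per cell cannot be told apart.

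**Figure D1:**
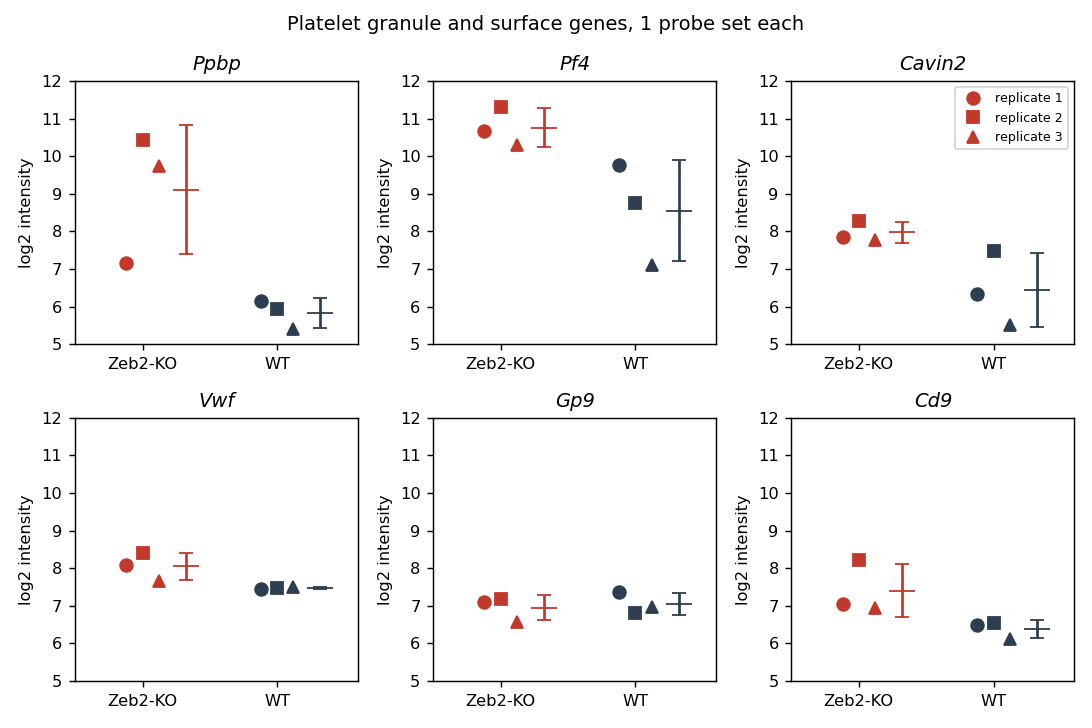
Log2 intensity (y axis) of the 6 genes on each array, with Zeb2-KO left of WT, a symbol for each replicate number, and the mean with its SD beside the points. The 2 groups do not overlap for Ppbp, Pf4, Cavin2, Vwf and Cd9, and they overlap for Gp9.

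Ppbp encodes pro-platelet basic protein, the precursor of a neutrophil-attracting CXC chemokine that platelets release from their granules. Its log2 intensity (probe set 10523128) was 7.16, 10.43 and 9.74 in Zeb2-KO replicates 1 to 3, against 6.16, 5.93 and 5.4 in WT. Zeb2-KO replicate 1 lay far below the other arrays of its group and 1.0 above the highest WT array, and all 3 WT arrays lay below the median of their own array, so that the WT signal was dim. On the linear scale the intensities were 143, 1382 and 854 in Zeb2-KO and 71.6, 60.8 and 42.2 in WT. The means were 9.11 ± 1.72 in Zeb2-KO and 5.83 ± 0.39 in WT (SD, n = 3 each), a difference of 3.28 (SE 0.67) or 9.72-fold. The difference was 4.26 without Zeb2-KO replicate 1 and 2.62 without Zeb2-KO replicate 2.

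Pf4 encodes platelet factor 4, a granule CXC chemokine that binds heparin. Its log2 intensity (probe set 10523134) was 10.66, 11.32 and 10.30 in Zeb2-KO, against 9.77, 8.75 and 7.12 in WT. Here the spread lay mostly within WT, whose arrays covered 2.65 log2 units against 1.02 in Zeb2-KO, and the nearest arrays of the 2 groups stood 0.53 apart. The means were 10.76 ± 0.52 in Zeb2-KO and 8.55 ± 1.34 in WT, a difference of 2.21 (SE 0.57) or 4.64-fold. Without WT replicate 3, the lowest array, the difference was 1.5, whereas omitting the highest WT array, replicate 1, gave 2.83.

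Ppbp and Pf4 lie next to each other on mouse chromosome 5, with no other protein-coding gene between them in the RefSeq gene order, inside a cluster of CXC chemokine genes. Cxcl3, the next gene beyond Pf4 and a neutrophil chemokine, stood at 5.47, 4.96 and 5.34 in Zeb2-KO and at 5.79, 5.38 and 5.17 in WT, a difference of -0.19 (limma adjusted p = 0.751). The groups overlapped for Cxcl3. Cxcl5, Cxcl15 and Cxcl1 of the same cluster were not analysed here. Of the 13 listed CXC chemokines besides these 2 genes, 4 were measured. All 4 lay lower, where 45.7% of all genes lay higher, and none passed the test across all probe sets. The lowest was Cxcl2, another neutrophil chemokine, at -0.68 (limma adjusted p = 0.673). Cxcl2, Cxcl3 and Cxcl13 were dim, with means over all arrays of 4.99, 5.35 and 5.89. After adjustment for the interquartile range of each array, 3 of the 4 lay higher, and the list median went from -0.25 to 0.10. With array weights, 2 lay higher.

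The regions before the start of both genes are shown because both neighbours lay higher in Zeb2-KO, and they are RefSeq sequences of build GRCm38.p6, plus strand, from 250 bases before to 50 bases after the annotated start. Capitals mark words of GATA factors (AGATAA and TGATAA as well as AGATAG and TGATAG) and of ETS factors (AGGAAG or CCGGAA), read on both strands. GATA and ETS factors are the main activators of megakaryocyte genes.
Ppbp, chr5:90768268-90768567: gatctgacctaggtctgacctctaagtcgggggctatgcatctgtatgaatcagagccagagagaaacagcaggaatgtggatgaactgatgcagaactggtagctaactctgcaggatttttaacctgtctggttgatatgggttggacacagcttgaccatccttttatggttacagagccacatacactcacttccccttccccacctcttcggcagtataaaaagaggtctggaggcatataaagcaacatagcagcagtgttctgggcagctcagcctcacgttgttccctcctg
Pf4, chr5:90772185-90772484: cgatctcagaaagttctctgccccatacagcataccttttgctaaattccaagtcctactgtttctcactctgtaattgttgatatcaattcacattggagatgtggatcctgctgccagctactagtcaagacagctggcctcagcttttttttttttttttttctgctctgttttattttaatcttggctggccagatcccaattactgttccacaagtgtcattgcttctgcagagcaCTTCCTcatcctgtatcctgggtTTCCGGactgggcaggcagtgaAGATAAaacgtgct
The Pf4 window held an ETS word 9 bases before the start, another at position 15 after it and a GATA word at position 37, and none of the matches overlapped. The Ppbp window held no word of either kind. Of 32851 windows of this length in the RefSeq table, 29.8% held a GATA word and 45.2% an ETS word. Of the other genes, Cavin2 and Gp9 held 1 ETS word each and Cd9 held 2, and none of them held a GATA word. The word of RUNX factors (TGTGGT, in 16.8% of all windows) occurred in Gp9 alone among the 5 genes with a window, and the E-box read by Zeb factors (CAGGTG, in 20.2%) in Cd9 alone, 73 bases before its start. These matches describe the letters of the windows and were not tested for binding.

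Cavin2 encodes a cavin, a coat protein that shapes caveolae and was first known from platelets as a phosphatidylserine-binding protein. Its log2 intensity (probe set 10346164) was 7.84, 8.29 and 7.78 in Zeb2-KO, against 6.34, 7.49 and 5.52 in WT. The Zeb2-KO arrays lay within 0.51 of each other, WT replicate 2 came within 0.29 of them, and WT replicate 3 was the lowest. The means were 7.97 ± 0.28 in Zeb2-KO and 6.45 ± 0.99 in WT (SD, n = 3 each), a difference of 1.52 (SE 0.44) or 2.87-fold, or 2.04 if WT replicate 2 and 1.06 if WT replicate 3 was left out. The RefSeq table places a long noncoding RNA gene, 9330175M20Rik, across the same interval, and how far the probes tell the 2 transcripts apart is not given in the sources used here. Partner genes of caveolae mostly lay on the other side of 0. Of 6 measured, 5 lay lower, where 45.7% of all genes lay higher, and none passed the test. Among the 5 was Cav1, the main coat protein of caveolae, at -0.46 (adjusted p = 0.673). All 6 were dim, with means over all arrays below the median of 6.63 over all probe sets. After adjustment for the interquartile range of each array, 2 of them lay higher, and the list median went from -0.34 to -0.03.

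Vwf encodes von Willebrand factor, which tethers platelets to injured vessels and carries coagulation factor VIII. It is made by megakaryocytes and by endothelial cells. Its log2 intensity (probe set 10541910) was 8.07, 8.39 and 7.67 in Zeb2-KO, against 7.44, 7.48 and 7.49 in WT. The 3 WT arrays agreed within 0.05, and the lowest Zeb2-KO array lay 0.18 above them. The means were 8.05 ± 0.36 in Zeb2-KO and 7.47 ± 0.02 in WT, a difference of 0.58 (SE 0.29) or 1.49-fold. Without Zeb2-KO replicate 2 the difference was 0.40 and without Zeb2-KO replicate 3 it was 0.76.

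Endothelial markers lay mostly lower. Of 10 measured genes of that list, 9 lay lower, where 45.7% of all genes lay higher, and none passed the test. All but Erg and Pecam1 were dim, with means over all arrays below the median of 6.63 over all probe sets. The list mean ran from 6.06 to 6.36 in Zeb2-KO and from 6.30 to 6.56 in WT. After adjustment for the interquartile range of each array, 4 of the genes lay higher, and the list median went from -0.23 to -0.08. Pecam1, an adhesion molecule of endothelium and platelets, stood at 7.14, 7.73 and 7.09 in Zeb2-KO and at 7.15, 7.70 and 7.75 in WT. Cdh5, Kdr and Tek, the usual defining markers, were not analysed here.

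Cd9 encodes a tetraspanin of the platelet and megakaryocyte membrane that organises integrins. Its log2 intensity (probe set 10548030) was 7.05, 8.21 and 6.94 in Zeb2-KO, against 6.49, 6.53 and 6.11 in WT. Zeb2-KO replicate 2 stood more than 1 log2 unit above the others of its group, which lay 0.41 or more above WT. The means were 7.40 ± 0.70 in Zeb2-KO and 6.38 ± 0.23 in WT, a difference of 1.02 (SE 0.37) or 2.03-fold, and it was 0.62 without Zeb2-KO replicate 2. Cd9 and Vwf are also next to each other among the protein-coding genes of chromosome 6. Ano2, the gene on the far side of Vwf and a calcium-activated chloride channel, stood at 5.76, 5.59 and 5.39 in Zeb2-KO and at 5.98, 5.89 and 5.98 in WT, a difference of -0.37 (adjusted p = 0.673), while the genes beyond Cd9 were not analysed here. A noncoding gene, Gm28809, lies inside the Cd9 interval in the RefSeq table.

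Other tetraspanins were divided. Of 15 measured besides Cd9, 7 lay higher and 8 lower (45.7% of all genes lay higher). Their median difference of -0.02 ran from -0.19 to 0.16 with 1 array left out, and none passed the test. Tspan8 lay at 1.40 (6.10, 7.11 and 6.32 in Zeb2-KO, 4.77, 5.84 and 4.71 in WT, adjusted p = 0.581) and Tspan31 at 1.22 (adjusted p = 0.602). Cd63, a tetraspanin of dense granule membranes, lay at 0.20.

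Gp9 encodes glycoprotein IX, a subunit of the GPIb-IX-V receptor through which platelets bind von Willebrand factor. Its log2 intensity (probe set 10539818) was 7.09, 7.18 and 6.58 in Zeb2-KO, against 7.36, 6.81 and 6.96 in WT. The highest array was WT replicate 1 and the lowest Zeb2-KO replicate 3, so the groups overlapped. The means were 6.95 ± 0.33 in Zeb2-KO and 7.04 ± 0.29 in WT, a difference of -0.09 (SE 0.30) that was smaller than the spread within either group. Gp5, the subunit V of the same receptor complex, stood at 8.31, 8.69 and 7.20 in Zeb2-KO and at 6.38, 7.36 and 7.36 in WT, a difference of 1.03 (limma adjusted p = 0.673) with overlap between the groups. Gp1ba and Gp1bb, the other subunits, were not analysed here.

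**Figure D2:**
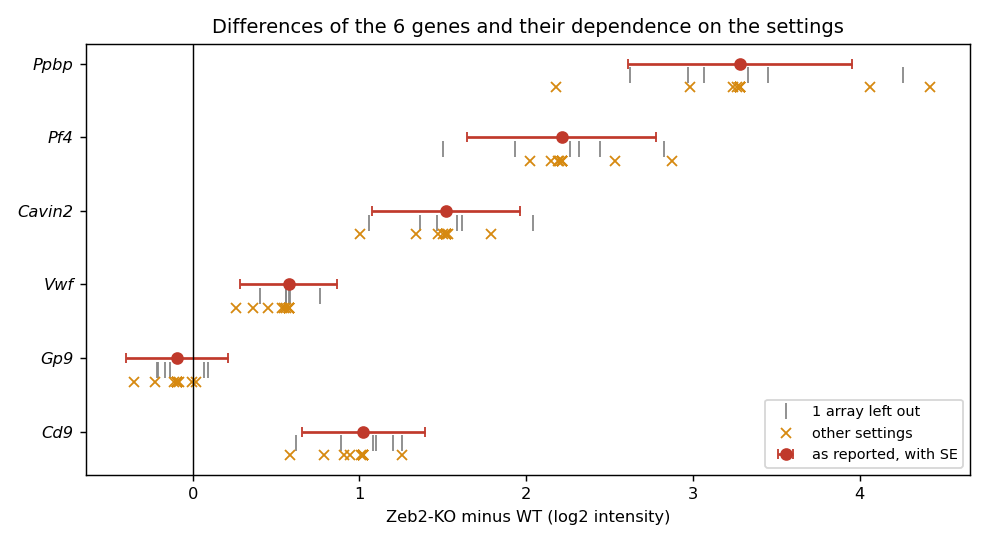
Difference between Zeb2-KO and WT in log2 intensity (x axis) for each gene, as the reported value with its limma SE, with each array left out in turn and under the other settings. Ppbp, Pf4, Cavin2, Vwf and Cd9 stay above 0 in every setting drawn, and Gp9 lies on both sides of 0.

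The order of the arrays was partly shared between the genes. Zeb2-KO replicate 2 was the highest of all arrays for 5 of the 6 genes, the exception being Gp9, and WT replicate 3 was the lowest for 4, namely Ppbp, Pf4, Cavin2 and Cd9. After group means were removed, the correlation between the deviations of 2 genes over the 6 arrays ranged from -0.08 (Cavin2 and Gp9) to 0.81 (Vwf and Cd9), and it was 0.33 for Ppbp and Pf4. These points share arrays and their scaling, and 6 arrays give little precision. The clearest split was Zeb2-KO replicate 1, which lay 1.95 below its group mean for Ppbp and 0.10 below it for Pf4.

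The spread of the arrays ran along with some of the genes. The correlation of log2 intensity with the interquartile range over the 6 arrays was 0.81 for Ppbp, 0.80 for Cd9, 0.76 for Cavin2, 0.67 for Vwf, 0.50 for Pf4 and -0.34 for Gp9, and within groups it was 0.70 for Ppbp and 0.02 for Pf4. Zeb2-KO replicate 2, the highest array for 5 of the genes, also had the widest interquartile range. Adjusted for that range in the fit, the differences were 2.18 for Ppbp, 2.19 for Pf4, 1.0 for Cavin2, 0.45 for Vwf, 0.59 for Cd9 and 0.02 for Gp9. With quantile normalization, which gives all arrays 1 distribution, they were 3.24, 2.03, 1.47, 0.36, 0.94 and -0.23 in the same order of genes. Without both arrays that carried Y-linked signal, a choice made after seeing the data, they were 4.42, 2.88, 1.53, 0.55, 1.26 and 0.00.

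Other genes of platelets and megakaryocytes were taken from 9 lists without the 6 genes. Of 206 listed genes 106 were measured, 64 higher and 42 lower (45.7% of all genes lay higher), with a median difference of 0.14 beside -0.07 over all genes. None passed limma's test at an adjusted p of 0.05 (0.0137% of all probe sets did, both higher). At an unadjusted p under 0.05 there were 13 higher (12.3%) and 1 lower, where 6.06% of all genes lay higher and 1.01% lower at that p. The groups did not overlap for 18 that lay higher (17.0%, beside 7.39% of all genes) and for 5 that lay lower (beside 6.11%). The share of higher genes in the lists was thus above that of all genes by direction, at the unadjusted p and without overlap. It was not above it at the adjusted p, and none of these margins was tested. Brighter probe sets lay higher more often in general. With dim probe sets left out, 55 of 76 of these genes lay higher, where 63.5% of all probe sets kept did. The unadjusted count was 4 after adjustment for the array spread and 6 without Zeb2-KO replicate 2. With quantile normalization 53 of the 106 lay higher with a median of 0.00, where 42.4% of all probe sets lay higher with a median of -0.07.

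**Figure D3:**
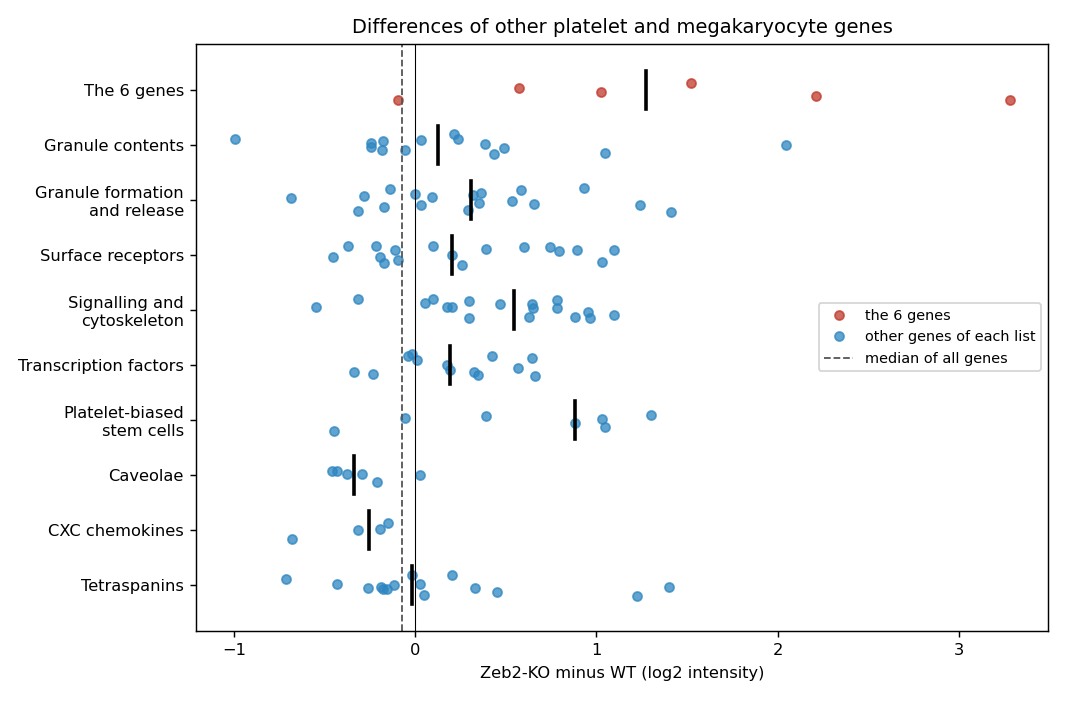
Difference between Zeb2-KO and WT in log2 intensity (x axis) for the 6 genes and for the other measured genes of 9 platelet and megakaryocyte lists, 1 point per gene, with black bars for medians. The other granule contents have a median of 0.12 and the signalling and cytoskeleton genes one of 0.55, while caveolar genes and other CXC chemokines lie mostly below 0.

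Granule contents other than Ppbp, Pf4 and Vwf were mixed, with 8 of 14 measured genes higher (45.7% of all genes were) and a median of 0.12. That median was 0.35 and 0.05 if Zeb2-KO replicates 1 and 2 were left out in turn, and 0.08, 0.32 and 0.01 for WT replicates 1 to 3. Timp3, an inhibitor of matrix metalloproteinases, stood at 8.44, 9.26 and 7.97 in Zeb2-KO and at 6.71, 6.44 and 6.37 in WT, a difference of 2.05 (adjusted p = 0.227). Clu, the secreted chaperone clusterin, stood at 6.99, 7.79 and 7.87 in Zeb2-KO and at 6.24, 6.46 and 6.81 in WT, a difference of 1.05 (adjusted p = 0.608). Neither gene had overlapping groups. Sparc, a matrix glycoprotein that platelets store and stromal cells also make, lay at -0.99 (adjusted p = 0.661). Mmrn1, multimerin of alpha granules, lay at -0.06, F5, coagulation factor V, at 0.21, and F13a1, the A subunit of factor XIII, at -0.24.

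Genes for forming, loading and releasing granules lay higher in 13 of 18 (72.2%, beside 45.7% of all genes), with a median of 0.31. At an unadjusted p under 0.05, 3 lay higher (16.7%, beside 6.06% of all genes). Leaving out Zeb2-KO replicate 3 gave a median of 0.13, and so did leaving out WT replicate 3, with 10 of 18 higher. The 3 genes were Rab27a, a vesicle-docking GTPase, Vps33b, needed for alpha granule formation, and Vamp8, the main membrane fusion protein of platelet secretion. Rab27a stood at 8.44, 9.68 and 10.09 in Zeb2-KO and at 8.14, 8.2 and 7.64 in WT (difference 1.41, adjusted p = 0.602). Vamp8 stood at 11.11, 11.31 and 10.92 in Zeb2-KO and at 10.48, 10.80 and 8.34 in WT (difference 1.24, adjusted p = 0.673). For Vamp8, WT replicate 3 lay well below every other array, and it was also the lowest array for Pf4 and Cavin2. Vps33b lay at 0.93 and Rab27b, the dense granule relative of Rab27a, at 0.65, both without overlap.

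Surface receptors other than Gp9 and Cd9 lay higher in 10 of 17, where 45.7% of all genes did. Their median of 0.20 was -0.03 without Zeb2-KO replicate 2, and 0.31 and 0.07 without WT replicates 2 and 3. The subunits of the fibrinogen receptor both lay higher. Itgb3, its beta chain, stood at 8.37, 8.99 and 8.63 in Zeb2-KO and at 8.28, 8.07 and 7.40 in WT, a difference of 0.75 (adjusted p = 0.673), and Itga2b, the alpha chain CD41, lay at 0.39. Itga6, a laminin receptor chain that many cells carry, lay at 1.10 and Clec1b, the podoplanin receptor CLEC-2, at 0.79. Clec1b was dim, with a mean of 4.50 over all arrays, and its groups overlapped. On the lower side were P2rx1, an ATP-gated channel, at -0.45, and Ptgir, the prostacyclin receptor, at -0.37. None of the surface receptors passed the test.

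Signalling and cytoskeletal genes lay higher in 16 of 18 (88.9%, beside 45.7% of all genes), with a median of 0.55. At an unadjusted p under 0.05, 2 lay higher (11.1%, beside 6.06% of all genes). Plek, pleckstrin, a kinase substrate of platelets and other blood cells, stood at 9.44, 10.36 and 8.95 in Zeb2-KO and at 9.03, 8.11 and 8.33 in WT, a difference of 1.10 (adjusted p = 0.657). Vcl, the focal adhesion protein vinculin, lay at 0.78 without overlap. Myh9, the nonmuscle myosin of platelets, lay at 0.96 with overlap between the groups. Orai1, a calcium channel subunit, lay at -0.55. The list median was 0.11 after adjustment for the array spread, 0.34 when Zeb2-KO replicate 2 was omitted and 0.22 when WT replicate 1 was.

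Transcription factors of megakaryocytes lay higher in 9 of 13, where 45.7% of all genes did, with a median of 0.19 and none at an unadjusted p under 0.05. Lmo2, a bridging factor of blood transcription complexes, lay at 0.64, and Meis1, a homeobox partner, at 0.66. Nfe2, which drives late platelet formation, lay at 0.42, Fli1, the ETS factor of the lineage, at 0.32, Gata2 at 0.35 and Gfi1b at 0.19. Gata1 and Runx1 were not analysed here. The list median was -0.03 with quantile normalization, 0.32 and 0.10 without Zeb2-KO replicates 1 and 2, and 0.37 without WT replicate 2.

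Genes known as raised in platelet-biased stem cells of the mouse had a median of 0.88 over 7 measured besides the 6 genes. Of these, 5 lay higher, where 45.7% of all genes did. Among the 7, Clu, Gp5, Itga2b, Rgs18 and Mmrn1 also stand in the granule, surface or signalling lists above. The median is the value of Rgs18, at 8.89, 9.66 and 8.29 in Zeb2-KO and at 5.87, 9.94 and 8.39 in WT, with overlap between the groups. Slamf1 differed by 1.30 (adjusted p = 0.673), without overlap between the groups and with WT replicate 1 far below the other arrays. Omitting Zeb2-KO replicate 2 gave these genes a median of 0.52, omitting WT replicate 1 one of 0.51, and it was 0.46 after adjustment for the array spread. Procr, a stem cell surface receptor, lay at -0.45.

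Markers of other cell types also differed in level between the groups' arrays. The erythroid list, the branch nearest to megakaryocytes, had 9 of 10 measured genes higher and a mean between 6.92 and 7.43 in Zeb2-KO and between 6.33 and 6.63 in WT. Car2, carbonic anhydrase, stood at 11.34, 11.22 and 11.08 in Zeb2-KO and at 8.63, 9.94 and 9.91 in WT. The B lymphoid list had all 14 measured genes lower, with a mean between 6.23 and 6.95 in Zeb2-KO and between 7.02 and 7.86 in WT, and the monocyte and dendritic list had 11 of 13 lower, between 6.69 and 7.20 in Zeb2-KO and between 7.13 and 7.50 in WT. Stromal genes were lower in 8 of 8, and all but Sparc, Col1a1 and Col1a2 of them were dim, with means below the median of 6.63 over all probe sets. Beside the counts of these lists, 45.7% of all genes lay higher. After adjustment for the array spread, the list median went from 0.80 to 0.55 for erythroid genes and from -0.69 to -0.23 for B lymphoid genes. For monocyte and dendritic genes it went from -0.37 to -0.10, and for stromal genes from -0.36 to -0.04. None of the genes of these lists passed the test, and the part of a changed mixture of cells in the values of the 6 genes was not tested.

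Granulocyte, T and NK, and mast cell lists overlapped between the groups. Their list means were 5.65 to 6.24 in Zeb2-KO and 5.54 to 5.74 in WT for granulocytes, 5.22 to 5.67 in Zeb2-KO and 5.27 to 5.64 in WT for T and NK cells, and 5.35 to 5.80 in Zeb2-KO and 5.34 to 5.67 in WT for mast cells. Erythroid means were highest on Zeb2-KO replicate 2, the array on which 5 of the 6 genes were highest, and the B lymphoid mean was lowest there. The lowest erythroid mean was on WT replicate 2, not on WT replicate 3, where Ppbp, Pf4, Cavin2 and Cd9 were lowest.

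**Figure D4:**
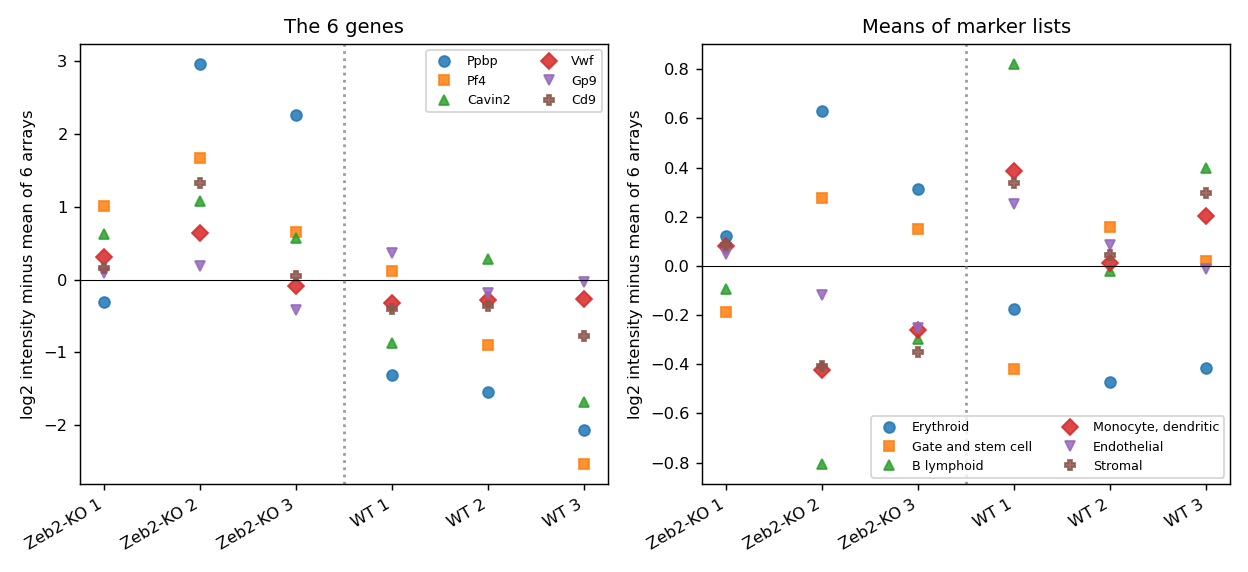
Log2 intensity minus the mean of the 6 arrays (y axis) on each array, for the 6 genes (left panel) and for the means of 6 marker lists (right panel, on a narrower scale), with Zeb2-KO arrays left of the dotted line. Zeb2-KO replicate 2 holds the highest points of 5 genes, the highest erythroid mean and the lowest B lymphoid mean.

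The genes whose profile over the 6 arrays was most like the mean of the 6 genes, each scaled to the same spread, were Zcchc17 (Pearson r = 0.993), Tnfaip2 (0.992), Ftsj3 (0.972), Drap1, Pgd, Prep, Prr11 and Lrrc41 (0.960), out of 5785 probe sets at or above the median signal. Tnfaip2, a gene induced by tumor necrosis factor, stood at 7.07, 7.75 and 6.97 in Zeb2-KO and at 6.63, 6.55 and 6.25 in WT. For Ppbp alone the nearest were Inip (0.993) and 2 probe sets of Cbx3 (0.992 and 0.991), which encodes a heterochromatin protein. For Pf4 they were Pigq, Tmx3 and Csrp1, for Cavin2 Zfp866, Gas8 and Dph3, for Vwf Ndufs8, Prr11 and Pank3, for Gp9 Vps51, Kcna3 and Zc3hc1, and for Cd9 Tnfaip2, Nup50 and Zcchc17. These values describe 6 arrays that share their groups and scaling.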

How the data were processed

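Amplified, biotin-labelled RNA of each sorted sample was hybridised to 1 array, per the labels' protocols. The deposited intensity of each probe set came from RMA, which corrects background, normalizes and summarises probes, per the submitters' processing notes, and its version and later scaling were not given in the sources used here. Intensities ran on a linear scale and were turned into log2 values. Arrays carry no read depth, and 3 arrays per group limit the precision.

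Of 20220 rows, 5610 with identifiers below the first annotated one were left out as a control block, decided with the table in view. Of the other 14610, 11229 carry 1 symbol (11184 found in RefSeq GRCm38.p6 by gene identifier), 766 several and 2615 none. Lists used the brightest probe set per gene. Zeb2-KO minus WT was tested in limma (version 3.58.1, R 4.3.3, lmFit then eBayes, 4 residual and 6.87 prior degrees of freedom), and p-values were adjusted over all 14610 by Benjamini-Hochberg. In 5 simulated sets of 14610 probe sets, 200 were changed by log2 sizes of 1 to 4, with noise drawn independently for each value. There, limma called 6.8% of changes of size 1 and 70.4% of size 2. On the real arrays 2 probe sets passed and the arrays differed in spread, so these shares do not measure the power of this comparison.

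The genes and lists were chosen with earlier results of these data known. Named are the 6 genes, up to 4 others per platelet list by smallest p, markers that are brightest or of smallest p, gene neighbours and the most similar profiles. Mmrn1, F5, F13a1, Cd63, Itga2b, P2rx1, Ptgir, Myh9, Rgs18, Nfe2, Fli1, Gfi1b, S100a8, Cd3g, Ncr1, Klrb1c, Eif2s3y and Xist were added with their values in view. The alternatives tried were quantile normalization, centring, an offset of 16, a filter on dim probe sets, trended and robust priors, array weights, adjustment for the array spread, the replicate number as a block, the control rows included, all probe sets of a gene, and each array left out.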

Additional observations from a re-analysis of the deposited data

How the results depend on the processing

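Across 17 alternatives, Ppbp (2.18 to 4.42), Pf4 (1.5 to 2.88), Cavin2 (1.0 to 2.04), Cd9 (0.59 to 1.26) and Vwf (0.26 to 0.76) kept their direction, and Vwf alone moved by more than its replicate spread, to 0.26 with array weights, whose estimation did not converge. Gp9 turned to 0.019 after adjustment for the array spread, and leaving out 1 array gave -0.21 to 0.093, above 0 without WT replicate 1 or Zeb2-KO replicate 3. The cause was not tested.

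The number of probe sets past the threshold was 2 as reported. It was 978 with array weights, 1 after adjustment for the array spread, with dim probe sets left out and without both arrays carrying Y-linked signal, 3 with a trended prior and with the control rows included, and 2 to 18 with 1 array left out (18, 10 and 9 without WT replicates 2, 1 and 3, and 5 and 3 without Zeb2-KO replicates 1 and 2). A replicate block in the fit gave 0, while the differences of the 6 genes were the same. Same-numbered arrays deviated together with correlations of 0.36, 0.41 and 0.05. Each array correlated best with the other of its own number, a hint from the data, but the third value is under 0.1 and the labels name no shared batch, so the numbers were not taken as pairs.

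Of the 106 other platelet and megakaryocyte genes, 0 passed except with array weights (12). Their median was 0.14, 0.31 with dim probe sets left out (0.18 over all probe sets tested there), and 0.062 to 0.31 with 1 array left out (0.31 and 0.08 without Zeb2-KO replicates 1 and 2, and 0.27 and 0.062 without WT replicates 2 and 3). It was 0.00 with quantile normalization (-0.07 over all probe sets, 42.4% of them higher) and 0.07 after adjustment for the array spread (-0.01 over all, 49.0% higher).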

Other observations

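Zeb2-KO replicate 2, the array on which 5 of the 6 platelet genes were highest, also stood apart for a mast cell and basophil gene. Fcer1a, the alpha chain of the high-affinity IgE receptor, was at 7.50 on that array. It was at 4.71 and 4.51 on the other Zeb2-KO arrays and at 4.62, 4.11 and 4.79 in WT. The other measured mast cell and basophil genes, Prss34 (5.25), Mcpt8 (4.73) and Hdc (5.74), were each at their lowest on that array. Nkg7, a granule membrane gene of NK and cytotoxic T cells, was also highest on Zeb2-KO replicate 2, at 8.95. It was at 7.83 and 6.96 on the other Zeb2-KO arrays and at 6.86, 6.96 and 6.58 in WT. Of the other measured T and NK genes, Cd3g (5.22) was highest on Zeb2-KO replicate 2 as well. Cd3e (6.03) and Ncr1 (4.16) were lowest there, and Zap70 and Klrb1c were neither. The granulocyte gene S100a9, a calprotectin subunit, was instead highest on Zeb2-KO replicate 1, the array of that group with the lowest Ppbp. It was at 10.16 there, at 6.74 and 7.57 on the other Zeb2-KO arrays and at 6.98, 6.81 and 6.42 in WT. S100a8, the other calprotectin subunit, was at 4.57 on Zeb2-KO replicate 1, at 4.23 and 4.85 on the others of that group and at 4.82, 4.70 and 4.59 in WT. None of the other measured granulocyte genes was highest on Zeb2-KO replicate 1.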
